A study of Mus musculus with 12 samples.

Results

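The genes described here are those of the mouse zinc finger protein series whose symbols begin with Zfp directly followed by a number. A table of 5764 genes in 12 libraries held 28 of them, out of 406 RefSeq genes with such names. Membership went by the symbol alone, but this series of genes was chosen with earlier results of these data known. The libraries came from the arcuate-enriched hypothalamus of POMCRiboTag mice, in which an HA-tagged ribosomal protein is made in cells of the POMC lineage, and RNA was recovered by pulling down ribosomes through that tag. In such bulk RNA, fewer cells and less RNA per cell cannot be told apart. Wild-type animals are not among the groups, and the line that drives Cre is not named in the labels. All mice had fasted for 16 h with water at hand and then had 1 h to get used to the room. The NEO group (6 libraries) met a nonedible object, wooden pins inside a mesh, and the SENS group (6 libraries) met chow inside a mesh that could be perceived and not eaten, each for 10 min. Cage mates were kept in pairs or triplets. The labels do not tie each library to a separate mouse, so p-values measure the spread between these libraries, which may be technical. The series title links the contrast to glycogen metabolism in Pomc neurons.

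Zinc finger proteins of the C2H2 kind bind DNA through tandem fingers, each of which contacts a short stretch of bases. Many of the numbered mouse genes encode KRAB zinc finger proteins, in which a KRAB domain recruits the corepressor TRIM28 and, through it, histone and DNA methylation. Many of them silence retroviral elements, and their genes lie in tandem clusters that arose by repeated duplication, so close copies share much of their sequence. The Zfp symbol also covers unrelated proteins, such as CCCH proteins that bind RNA, and transcription factors of epithelium, germ cells or pluripotent cells.

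The table held genes with few reads, and 6901 to 18299 reads per library lay behind it. Values are CPM, reads scaled to a sum of 1000000 per library, with 1 read worth 54.6 to 145 CPM. A gene at 0 could still have had a level of 3 reads there (164 to 435 CPM, depending on the library). Reads carried no molecular identifiers, so these limits cover counting error only. CPM are not corrected for gene length, so no statement compares the levels of different genes. Mean CPM served only to choose some of the genes named. None of the 12 listed markers of POMC and neighbouring arcuate neurons was in the table, so the labelled cell type could not be checked here. All of the 28 Zfp genes had a value above 0 in at least 1 library, against 89.2% of all genes, and passed the filter on low values. Of the 28, 13 were above 0 in all 12 libraries, against 4.02% of all genes. They had between 1 and 128 reads over all libraries, with a median of 37.7.

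The position of the genes divided them. Of the 28 genes, 10 lay in 1 run on chromosome 4 (145670697 to 147702631, GRCm38), and no other place held more than 2 within 1 Mb of each other. The run spans 2031935 bases with 64 RefSeq genes, 14 of them protein-coding and 13 of those named Zfp. It is a known cluster of KRAB zinc finger genes. Upstream sequences are shown for the most alike members only, so they do not show how alike the run is in general. The 250 bases before the annotated start were taken from RefSeq (GRCm38.p6). Pairs of members were ranked by alignment score, with each gene used in 1 pair only. The first 2 pairs are printed 5′ to 3′ on each gene's own strand. Capitals mark aligned bases that differ or have no partner, and the ends that lie beyond the aligned stretch are in lower case.
Zfp600 (chr4:146156577-146156826, plus strand): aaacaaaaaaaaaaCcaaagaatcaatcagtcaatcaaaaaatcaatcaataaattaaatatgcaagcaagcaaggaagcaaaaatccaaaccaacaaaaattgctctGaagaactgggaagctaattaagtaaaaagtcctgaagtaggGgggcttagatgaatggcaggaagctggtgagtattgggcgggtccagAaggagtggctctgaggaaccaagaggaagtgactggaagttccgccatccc
Zfp979 (chr4:147642509-147642758, minus strand): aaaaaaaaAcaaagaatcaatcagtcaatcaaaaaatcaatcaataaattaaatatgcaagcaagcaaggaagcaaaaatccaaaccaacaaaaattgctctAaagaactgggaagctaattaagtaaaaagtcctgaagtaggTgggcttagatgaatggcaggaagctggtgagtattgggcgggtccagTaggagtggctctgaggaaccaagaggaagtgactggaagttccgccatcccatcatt
Zfp987 (chr4:146097062-146097311, plus strand): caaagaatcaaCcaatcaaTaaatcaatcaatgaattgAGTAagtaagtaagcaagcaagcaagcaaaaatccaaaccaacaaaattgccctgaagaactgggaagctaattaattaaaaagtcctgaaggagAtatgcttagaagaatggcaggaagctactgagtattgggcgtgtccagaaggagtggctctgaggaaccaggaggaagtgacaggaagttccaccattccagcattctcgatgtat
Zfp534 (chr4:147702632-147702881, minus strand): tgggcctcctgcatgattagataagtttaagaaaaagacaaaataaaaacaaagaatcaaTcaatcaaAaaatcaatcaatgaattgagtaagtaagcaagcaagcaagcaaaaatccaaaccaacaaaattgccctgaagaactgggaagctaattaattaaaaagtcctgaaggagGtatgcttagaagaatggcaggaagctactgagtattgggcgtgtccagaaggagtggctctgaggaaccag

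Zfp600 and Zfp979 were identical at 240 of 244 aligned positions (98.4%), although the genes lie on opposite strands. Zfp987 and Zfp534 were identical at 198 of 205 (96.6%), and 4 of the 7 differing positions were bases that Zfp534 lacks. Over all genes with a promoter entry (250 bases before to 50 after the start), a match to a non-overlapping promoter of another gene was counted when it covered at least 150 bases with at least 90% identity. Such a match existed for 7 of 8 run members (87.5%) and for 4 of 15 members elsewhere (26.7%). The share was 11.7% among the 3910 genes of the CPM table with an entry and 8.26% among 27025 RefSeq genes. In the run the closest match ranged from 90.2% identity for Zfp985 to 99.7% for Zfp600, and Zfp981 had none. Zfp781 on chromosome 10 matched the predicted gene Gm3055 at all 300 bases, and Zfp345 on chromosome 2 matched Gm14139 over 268 bases (97.8%). Of the 6 members with whole reads only that had an entry, none had such a match. A match is a description of these windows and says nothing about the transcribed sequence.

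Most values of these genes were not whole numbers of reads. A value was called fractional when it lay more than 0.005 reads from a whole number. Of the 248 Zfp values above 0, 162 (65.3%) were fractional, while 18.8% of all values above 0 in the table were. Fractions occurred in 19 of the 28 genes, among them all 10 of the run, and 9 genes carried whole reads only. Of all genes with a value above 0, 22.7% had fractions. The table held 5 other genes within the span of the run, and all 5 had fractional values too, so this trait was not particular to its Zfp genes. In the run 100 of 110 values above 0 were fractional (90.9%), and elsewhere 62 of 138 (44.9%). The fractional parts were multiples of 0.5 reads in 30 values, of 0.33 in 16, of 0.25 in 10 and of 0.2 in 23, and the other 83 lay on none of these steps. In 21 values the whole level was below 1 read. Such fractions arise when a counting program divides a read among the places or genes it matches, and whether that was done here is not given in the sources used here. The number of sequenced fragments behind a fractional value is therefore unknown, and its split among near copies is uncertain. Another 18 genes of the table were listed by symbol as other zinc finger families (such as Zic, Klf, Prdm and Zscan). Of their 116 values above 0, 12 were fractional (10.3%), all in 2 of the genes. That list also held the opposite-strand RNA Zfhx2os and the gene Rslcan18.

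**Figure D1:**
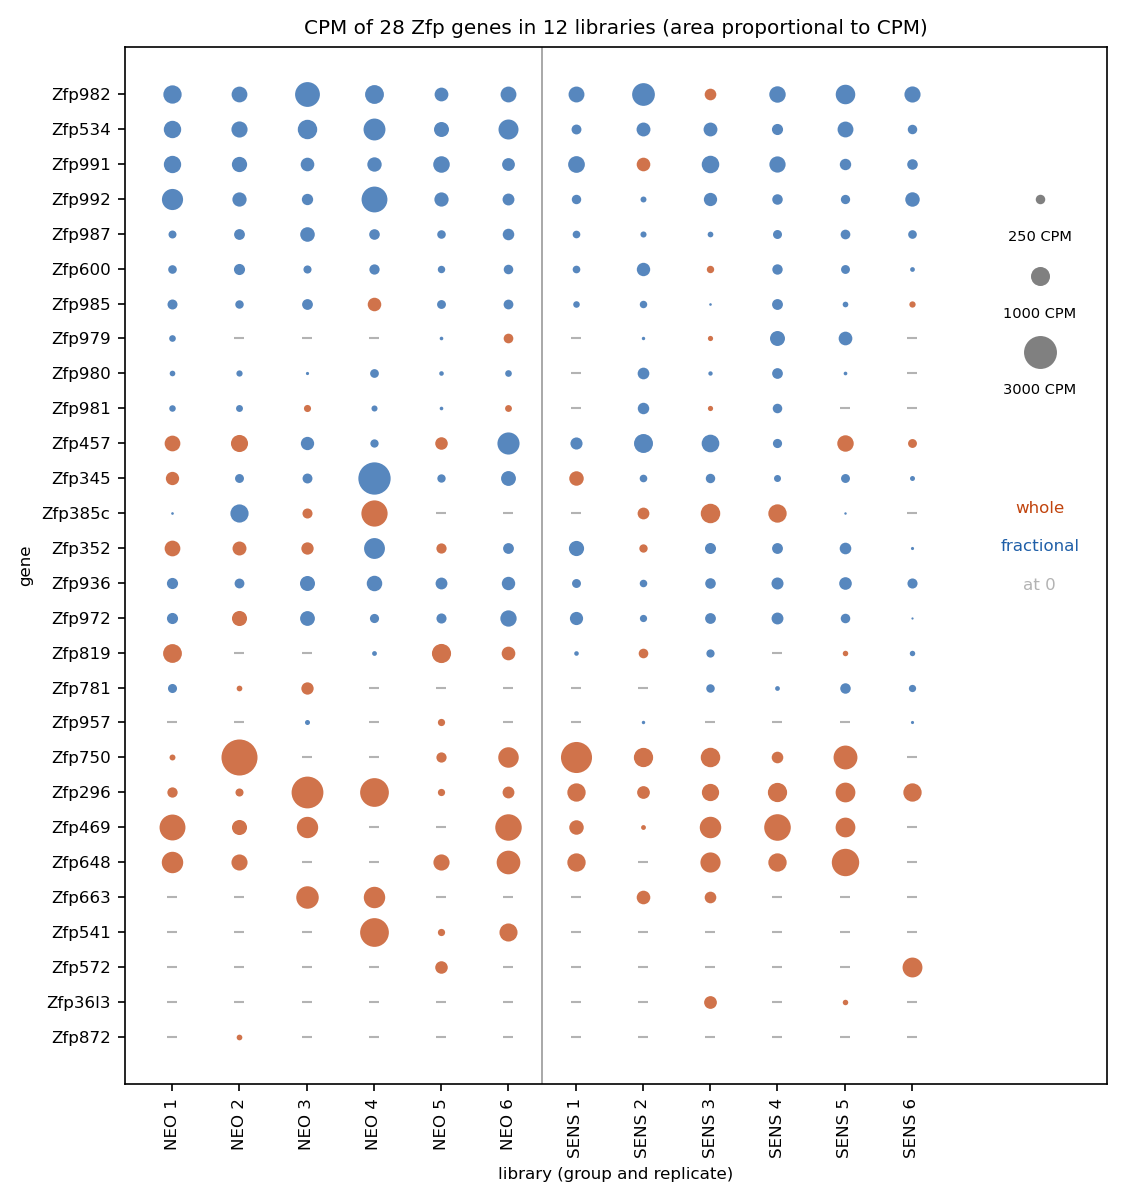
CPM of the 28 Zfp genes (rows) in the 6 NEO and 6 SENS libraries (columns). Circle area is proportional to CPM, colour marks whole (red) or fractional (blue) reads, and a dash marks 0. In the chromosome 4 run, from Zfp982 to Zfp981, 100 of the 110 circles are blue. The 9 genes at the bottom hold whole reads only, and of these Zfp296 alone has a circle in all 12 libraries.

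In the chromosome 4 run, 7 of 10 genes were above 0 in all 12 libraries. The share was 4.02% of all genes, and 52.2% of other genes with 15.1 to 113 reads and at least 75% fractional values. Zfp982 (147443114 to 147516064) had 113 reads, with 926, 689, 1703, 980, 526 and 695 CPM in NEO replicates 1 to 6 and 698, 1429, 375, 747, 1056 and 720 CPM in SENS. Its groups overlapped over most of their range. Zfp991 (147132093 to 147180579), which overlaps Zfp978 over its whole span, lay between 452 and 831 CPM in NEO (median of all 12 libraries 607) and between 310 and 849 CPM in SENS. Its coefficient of variation over the 12 libraries, 30.1%, was the lowest of the 28 genes.

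Zfp534 (147674225 to 147702631) had 836, 720, 1045, 1328, 620 and 1107 CPM under NEO and 270, 534, 530, 342, 696 and 249 CPM under SENS. Only SENS 5 reached into the NEO range, above NEO 5. The means were 942 ± 265 CPM under NEO and 437 ± 177 CPM under SENS (SD, n = 6 each). Zfp992 (146449030 to 146469440) had 1236, 561, 354, 1848, 561 and 391 CPM under NEO and 246, 98.1, 487, 305, 238 and 578 CPM under SENS. NEO 1 and NEO 4 were the high libraries, and the other 4 NEO libraries lay within the SENS range. The means were 825 ± 594 and 326 ± 177 CPM (SD, n = 6 each). The whole span of Zfp992 is overlapped by Vmn2r-ps16.

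Zfp987 (146097312 to 146126624) had 176, 323, 587, 311, 203 and 368 CPM under NEO and 162, 103, 90, 223, 260 and 208 CPM under SENS. In NEO 4 libraries lay above all of SENS, and NEO 1 and NEO 5 lay within its range. Zfp985 (147553277 to 147585201) had 277, 197, 322, 507, 217 and 265 CPM under NEO and 119, 154, 18.7, 326, 88.9 and 109 CPM under SENS. SENS 4 was the exception in a group that otherwise lay below NEO. Group means were 328 ± 147 and 174 ± 68.2 CPM for Zfp987, and 298 ± 112 and 136 ± 103 CPM for Zfp985 (SD, n = 6 each). Zfp600 (146156827 to 146198756) showed no such gap, with means of 237 ± 71.2 and 231 ± 151 CPM.

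The remaining 3 genes of the run were at 0 in some libraries. Zfp980 (145670697 to 145704437) and Zfp981 (146502000 to 146539395) had 15.8 and 15.1 reads. Zfp980 held 0.90, 1.20, 0.20, 1.67, 0.40 and 0.95 reads under NEO and 0, 5.90, 0.70, 3.42, 0.45 and 0 reads in SENS. Zfp981 held 1.20, 1.47, 1.00, 0.80, 0.25 and 1.00 reads in NEO and 0, 5.68, 1.00, 2.70, 0 and 0 reads in SENS. SENS 2 and SENS 4 were the high libraries for both genes, and SENS 1 and SENS 6 were at 0 for both. Zfp979, known as Ssm1b, a modifier of transgene methylation that differs between strains, totalled 3.50 reads over NEO and 14.4 over SENS, where SENS 4 and SENS 5 held 6.65 and 6.25.

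**Figure D2:**
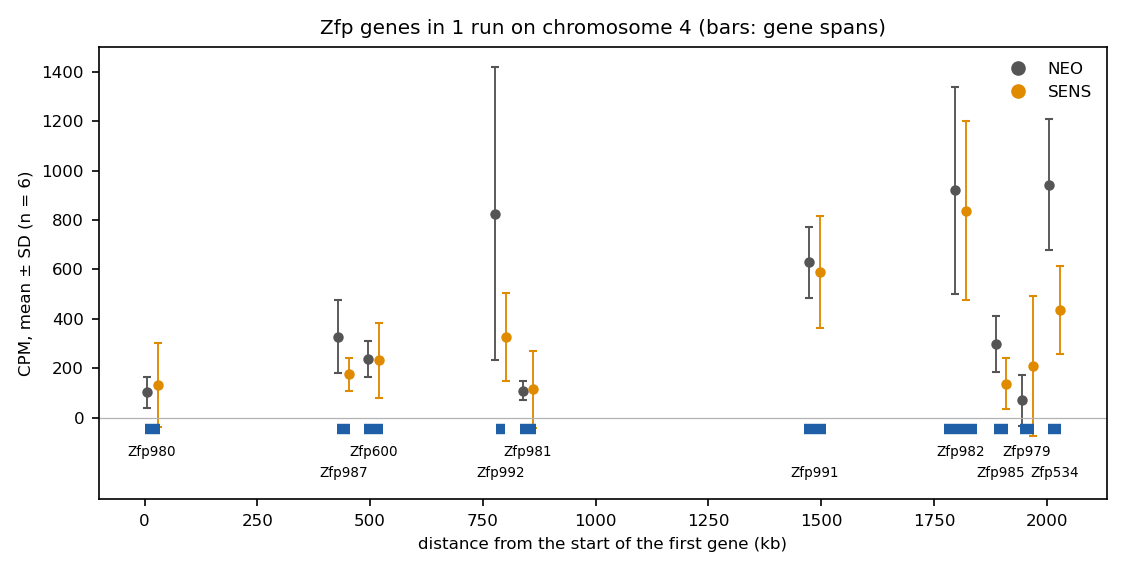
Mean CPM ± SD (n = 6) of the 10 genes of the chromosome 4 run in NEO and SENS, plotted by distance from the start of the first gene (kb), with gene spans as bars. Zfp534 alone has bars that do not overlap (means 942 and 437 CPM), and the bars of every other gene overlap.

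Outside the run, 9 genes carried fractional reads. Zfp936 (chromosome 7, 43114166 to 43192109) was fractional in all 12 libraries, with 345, 268, 622, 663, 388 and 497 CPM in NEO and 220, 157, 310, 400, 440 and 283 CPM under SENS. Its groups overlapped. Zfp972 (chromosome 2, 177903064 to 177925650), which overlaps the predicted gene Gm14327 over its whole span, had 471 ± 211 CPM under NEO and 267 ± 170 CPM under SENS (SD, n = 6 each). Zfp345 (chromosome 2, 150470991 to 150485063) had 489, 220, 273, 2885, 193 and 611 CPM under NEO and 580, 160, 246, 135, 220 and 68.3 CPM under SENS. NEO 4 alone held 22.8 of its 54.3 reads.

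In 4 genes, Zfp352, Zfp457, Zfp819 and Zfp957, every fractional part was 0.5 reads. Zfp352 (chromosome 4, 90218820 to 90225687) is a gene of the early embryo, where it is transcribed around zygotic genome activation. It was above 0 in all 12 libraries, with 684, 539, 420, 1205, 290 and 323 CPM under NEO and 638, 192, 337, 326, 374 and 27.3 CPM under SENS. Zfp457 (chromosome 13, 67288137 to 67306412), also called Rslcan-6 after the locus that regulates sex-limited protein in liver, had 660 ± 402 CPM under NEO and 577 ± 335 CPM under SENS (SD, n = 6 each). Zfp819 (chromosome 7, 43607135 to 43618279), a KRAB zinc finger gene of pluripotent cells, had 977, 0, 0, 63.4, 1014 and 516 CPM under NEO and 58.0, 257, 187, 0, 83.1 and 82.0 CPM under SENS. NEO 1, NEO 5 and NEO 6 held its whole reads in that group. Zfp957 had 2.50 reads in 4 libraries.

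Zfp781 and Zfp385c were the last fractional genes. Zfp781 (chromosome 10, 81901911 to 81930512) had 16.0 reads in 7 libraries, with parts of 0.33 reads in most of them. Zfp385c (chromosome 11, 100626219 to 100692466) had 57.6 reads in 8 libraries and no more than 0.20 reads in 2 of them, NEO 1 and SENS 5. Nkiras2 overlaps Zfp385c, and the use of strand in counting is not given in the sources used here, so reads of overlapping genes cannot be told apart. Over all 28 genes, 16 overlap another RefSeq gene and 4 overlap a protein-coding one. In the run, Zfp600 and Zfp981 are also overlapped over their whole span, and the protein-coding gene Zfp993 is among those that overlap Zfp981.

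The 9 genes with whole reads only lie outside the chromosome 4 run. Zfp296 (chromosome 7, 19577287 to 19580656), known from pluripotent cells, was the single one above 0 in all 12 libraries. It had 293, 180, 2797, 2283, 145 and 387 CPM under NEO and 928, 449, 825, 1024, 1080 and 929 CPM under SENS. In NEO replicates 3 and 4 were high and the other 4 lay below every SENS library. Zfp750 (chromosome 11, 121510976 to 121519342), a transcription factor of epidermal differentiation, lies wholly within the span of Tbcd, a tubulin folding cofactor gene. It had 97.7, 3591, 0, 0, 290 and 1162 CPM under NEO and 2668, 1026, 1050, 372, 1578 and 0 CPM under SENS. NEO 2 held 40 of its 52 NEO reads.

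Zfp469 and Zfp648 were absent from several libraries and high in others. Zfp469 (chromosome 8, 122043123 to 122272650), whose human counterpart is mutated in brittle cornea syndrome, had 1857, 628, 1259, 0, 0 and 1937 CPM under NEO and 580, 64.1, 1274, 1955, 1080 and 0 CPM under SENS. Zfp648 (chromosome 1, 154201187 to 154213209) had 1270, 718, 0, 0, 725 and 1549 CPM under NEO and 928, 0, 1125, 931, 2076 and 0 CPM under SENS. In each gene both groups ran from 0 to their high libraries and overlapped. NEO 4 and SENS 6 were at 0 for Zfp469, Zfp648 and Zfp750 alike.

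The other 5 genes with whole reads were above 0 in 1 to 4 libraries. Zfp541 (chromosome 7, 16061775 to 16096340), a chromatin regulator of meiotic germ cells, had 18, 1 and 7 reads in NEO 4, NEO 5 and NEO 6 and 0 of 78624 reads in SENS. Zfp663 had 10 reads each in NEO 3 and NEO 4, 8 in SENS 2 and 5 in SENS 3. Zfp572, annotated as a transcribed pseudogene (chromosome 15, 59306948 to 59312013), had 3 reads in NEO 5 and 20 in SENS 6. Zfp36l3 (chromosome X, 53772686 to 53776394), a placental member of the tristetraprolin family that binds AU-rich RNA, had 6 reads in SENS 3, 1 in SENS 5 and 0 of 51054 reads in NEO. Zfp872 had 1 read, in NEO 2. These genes were seen in few libraries of either group, and reads from 1 library made up most of the total for Zfp541 (69.2%), Zfp572 (87.0%) and Zfp36l3 (85.7%).

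The kinds of value went with different spread between libraries. The median coefficient of variation over 12 libraries was 67.2% (30.1% to 193%) for the 19 genes with fractional values and 174% (87.3% to 346%) for the 9 genes with whole reads only. Genes with fractional values were above 0 in a median of 12 libraries and the others in 4. Any fractional value put a gene in the first class, so detection in more libraries gave more chances to enter it. The same order was found in other genes of the table with as many reads as the run (15.1 to 113). There the median was 80.9% for 157 genes with at least 75% fractional values and 129% for 1702 genes with whole reads only. Genes are not replicates, so no test was made.

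**Figure D3:**
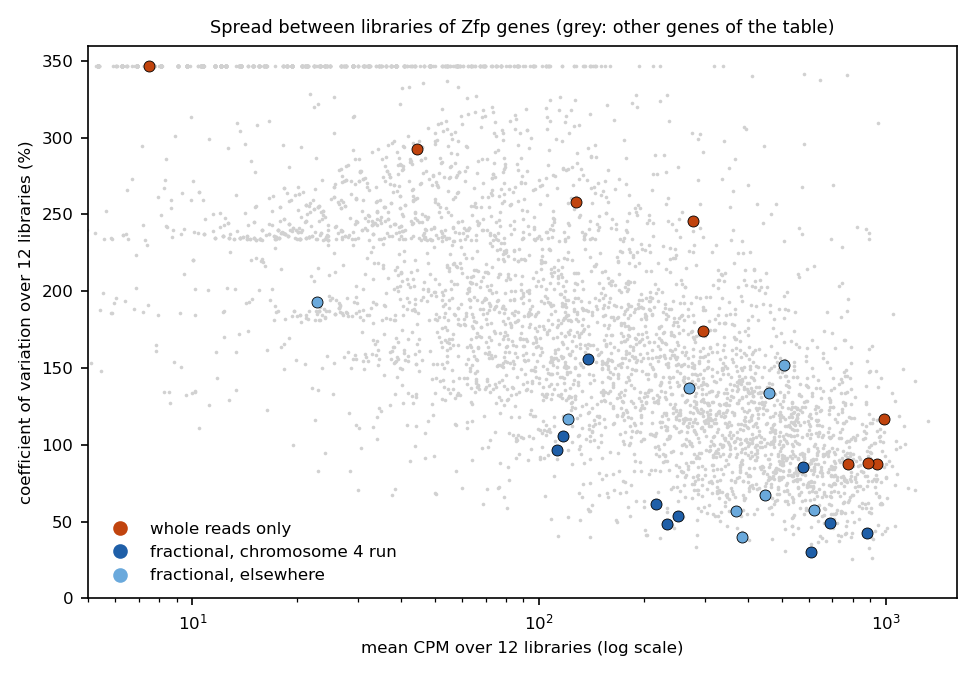
Coefficient of variation over the 12 libraries (%) against mean CPM (log scale) for the 28 Zfp genes, with other genes of the table in grey. Fractional genes of the chromosome 4 run lie between 30.1% and 156%, and genes with whole reads only lie at or above 87.3%.

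The SENS and NEO groups were compared to ask which of these transcripts differed in ribosome-bound RNA after food was sensed. No Zfp gene passed. In limma on log2(CPM + 1), fitted to the 5141 genes whose mean reached 1 CPM, 0 of 28 had an adjusted p under 0.05, and 0% of all genes tested did. The smallest adjusted p of a Zfp gene was 0.745. At an unadjusted p under 0.05 limma gave 1 of 28, against 3.68% of all genes. An exact permutation test of the difference in mean CPM over 924 regroupings, chosen after the data were seen, also gave 0 genes at an adjusted p under 0.05 (0% of all genes). The SE of a log2 fold change ranged from 0.68 to 2.76 among Zfp genes.

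Most Zfp genes had lower values in SENS. The log2 fold change was below 0 for 20 of 28 genes, against 43% of all genes, and the mean CPM was lower for 21 of 28, against 44.8%. The median log2 fold change was −0.39 for the 28 genes and 0.39 for all genes tested. Limma's single gene at an unadjusted p under 0.05 was lower in SENS, against 1.85% of all genes in that direction. That count was 0 in 10 of 22 other limma fits, and without SENS 6 the single gene was Zfp750, higher in SENS. The run had 9 of 10 genes below 0 (median −1.03), and the 9 genes with whole reads had 3 (median 0.22). By mean CPM, 7 of 10 and 5 of 9 were lower in SENS. The genes are not independent, because near copies may hold parts of the same reads. In reads, the 28 genes had 671 under NEO and 722 under SENS, a ratio of 1.08, while all genes had 51054 and 78623, a ratio of 1.54. The lower CPM thus stood beside slightly more reads of these genes and a larger total, and lower levels of these genes cannot be told apart from more reads in others. The 19 genes with fractional values had 434 and 424 reads (ratio 0.977), and the 9 with whole reads only had 237 and 298 (ratio 1.26). Among other genes with at least 75% fractional values the ratio was 1.24 (617 genes, median log2 fold change 0.02), and among those with whole reads only it was 1.58 (3964 genes, median 0.53). The part of the kind of value in the Zfp difference was not tested.

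Zfp541 had the smallest unadjusted limma p (log2 fold change −4.69, SE 2.27, adjusted p = 0.745). Its fitted fold change depends on the pseudocount. Set against the SENS limit of 3 reads over the group (38.2 CPM), the pooled NEO level of 509 CPM made it at least 13.3-fold lower in SENS, and at least 4.86-fold without NEO 4. This bound takes the NEO reads as exact and leaves out the spread between libraries. The exact permutation test of the mean CPM of Zfp541 gave p = 0.182 (adjusted p = 1.00). Zfp36l3, taken over all reads of a group, lay 1.52-fold above the NEO limit in SENS, with its 7 reads taken as exact. Its level fell below the limit for NEO without SENS 3, so this is not a lower bound. The exact permutation test of the mean CPM of Zfp36l3 gave p = 0.455. Zfp872 lay below the limit for SENS, so no fold is given.

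The exact permutation test on mean CPM gave an unadjusted p under 0.05 for 4 genes, against 2.51% of all genes. All 4 were lower in SENS, against 1.71% of all genes in that direction. The permutation p-values were those of Zfp534 (p = 0.00433), Zfp985 (p = 0.0238), Zfp987 (p = 0.0281) and Zfp992 (p = 0.0433), by the exact test, and each had an adjusted p = 1.00. All of these lie in the chromosome 4 run, where nearly every value is fractional. In limma they had log2 fold changes of −1.16 (SE 0.79), −1.46 (SE 1.50), −0.90 (SE 1.32) and −1.27 (SE 0.95), with adjusted p from 0.745 to 0.807. Other genes of the run were near 0, with −0.15 for Zfp982, −0.16 for Zfp991 and −0.26 for Zfp600. Zfp981 and Zfp980 had −2.88 and −1.80 although their mean CPM was slightly higher in SENS (115 against 109, and 131 against 103 CPM). In SENS 3 libraries were at 0 for Zfp981 and 2 for Zfp980.

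**Figure D4:**
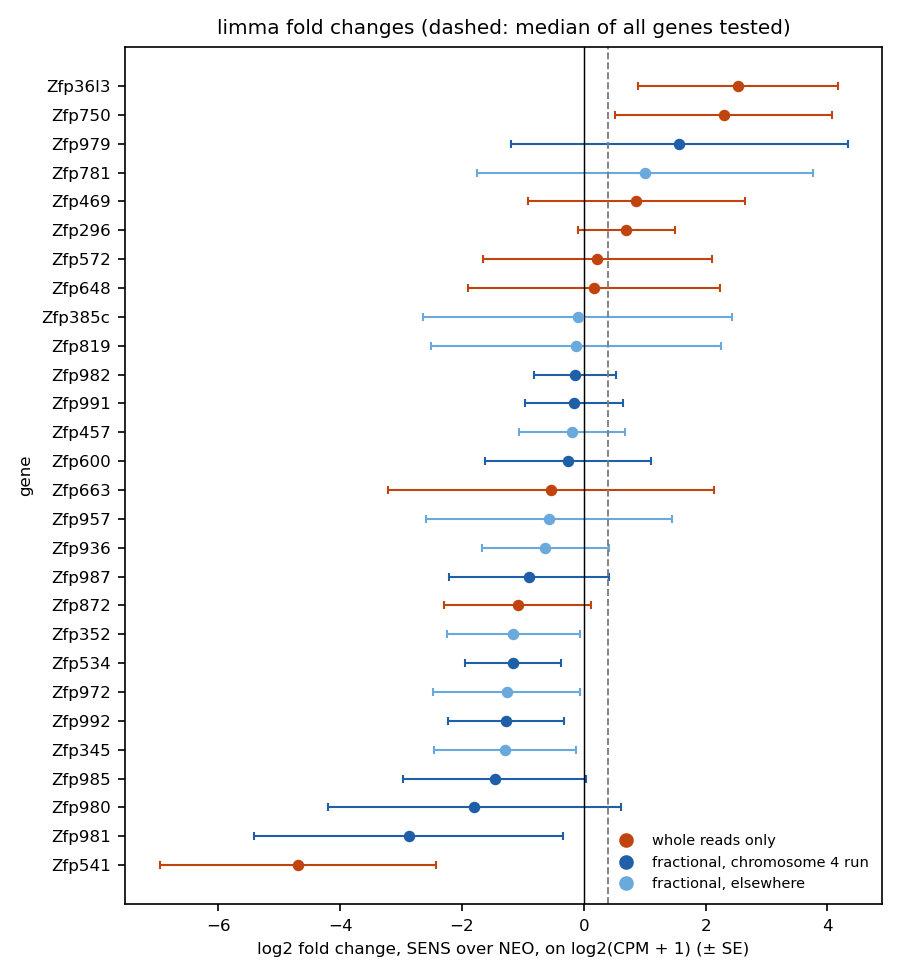
Log2 fold change, SENS over NEO, on log2(CPM + 1) with SE for the 28 Zfp genes, fitted by limma, with the median of all 5141 genes (0.39) as a dashed line. No gene passed, and 20 of the 28 points lie below 0.

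On the log2 scale 8 genes were higher in SENS. The largest log2 fold change was that of Zfp36l3, 2.53 (SE 1.64), with 6 of its 7 reads in SENS 3. Zfp750 had a log2 fold change of 2.30 (SE 1.78) and mean CPM of 857 ± 1410 under NEO and 1116 ± 942 under SENS (SD, n = 6 each). Zfp979 had 1.57 (SE 2.76), and Zfp781 had 1.01 (SE 2.76) with a mean CPM slightly lower in SENS (119 against 123 CPM). Zfp296 and Zfp469 had 0.70 (SE 0.79) and 0.86 (SE 1.78), also opposite to their mean CPM, which was lower in SENS (872 against 1014, and 826 against 947 CPM). Limma gave each of these genes an adjusted p between 0.745 and 0.921. Zfp572 and Zfp648 lay near 0 (0.22 and 0.16), as did Zfp457 (−0.20), Zfp819 (−0.12) and Zfp385c (−0.10).

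The summed CPM of the 28 genes was 12100, 12389, 13505, 19126, 7654 and 14017 under NEO and 9922, 8476, 11315, 10922, 11808 and 5123 under SENS. Of the NEO libraries 5 lay above every SENS library and NEO 5 lay below most of them. The means were 13132 ± 3701 and 9594 ± 2489 (SD, n = 6 each), a difference of −3538 CPM that became −2339 without NEO 4. The difference was −2178, −4769 and −2370 CPM within the label number ranges 1046 to 1050 (1 library per group), 1062 to 1074 (3) and 1103 to 1116 (2). Genes of the run summed to 4460 ± 1054 and 3184 ± 845 CPM, and genes with whole reads only to 4615 ± 1659 and 4076 ± 1660 CPM. The number of Zfp genes above 0 was 20.8 ± 1.17 under NEO and 20.5 ± 2.88 under SENS. The share of fractional values was 63.4% ± 5.80 in NEO and 68.2% ± 8.43 in SENS.

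**Figure D5:**
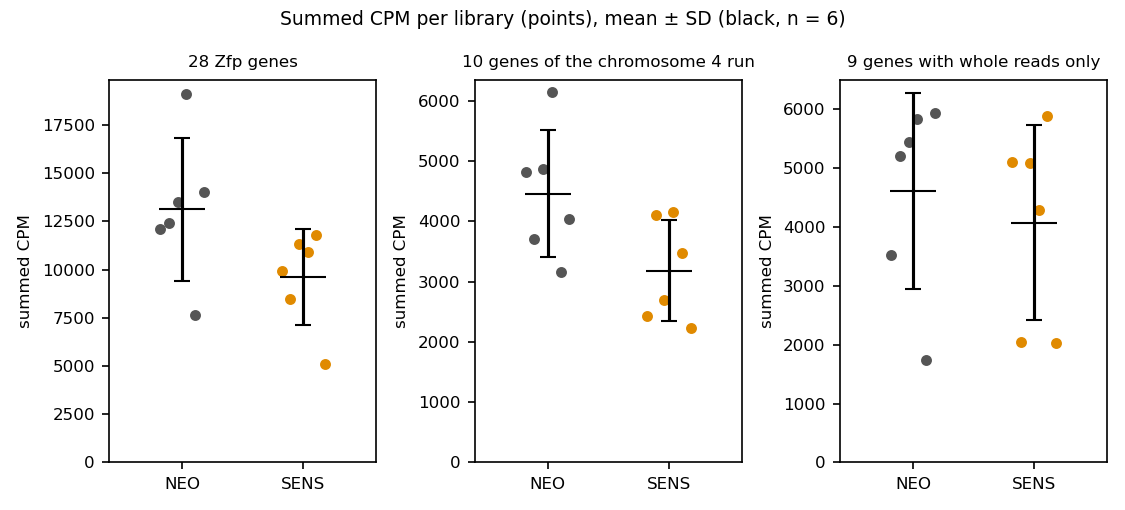
Summed CPM per library (points) with mean ± SD (n = 6) in NEO and SENS, for all 28 Zfp genes, the 10 genes of the chromosome 4 run and the 9 genes with whole reads only. The NEO and SENS means are 13132 and 9594 CPM for all 28 genes, and 4615 and 4076 CPM for those with whole reads.

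Of 25 genes for TRIM28 and the proteins that act with it on chromatin, the table held 2, and neither passed. Dnmt3b, a de novo DNA methyltransferase, had 97.7, 808, 699, 0, 435 and 516 CPM in NEO and 870, 449, 637, 419, 831 and 1475 CPM under SENS (log2 fold change 2.22, SE 1.20, limma adjusted p = 0.745). The groups overlapped. Uhrf1, which guides maintenance methylation, had 997 ± 1729 and 762 ± 1017 CPM (SD, n = 6 each), with 3 libraries of each group at 0. The other listed genes are not analysed here.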

How the data were processed

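Ribosome-bound RNA of 6 NEO and 6 SENS libraries was analysed from 1 table of CPM values deposited by the authors. The submitters' processing notes list FastQC, HISAT2, featureCounts and edgeR beside GRCm38 and mm10, with no order or role. The sources used here give no versions, gene filter, strand setting or handling of reads with several matches. Columns summed to between 999936 and 1000000, so values are relative to reads in these genes. Library depth is unknown.

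The most frequent value above 0 in a column was taken as 1 read. Since 18.8% of values above 0 were fractional, no count model was used. SENS and NEO were compared over all genes with limma 3.58.1 (R 4.3.3) on log2(CPM + 1), with a variance trend, a mean of at least 1 CPM and two-sided Benjamini-Hochberg adjusted p. The fit was tested on simulated counts with no spread between libraries beyond counting error. That test does not show what size of change could be found here. Symbols of all 28 genes were found in RefSeq (GRCm38.p6), and 23 had a promoter entry. Promoters were compared with blastn 2.17.0 on the gene's strand, and the printed pairs were aligned with Biopython 1.88.

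The genes and lists were chosen with earlier results of these data known. The rule for named genes took the 10 with the highest mean CPM, 8 per direction with the smallest p, those above 0 in at least 11 libraries, 6 from a list of known roles, the 5 with the highest percentage of fractional values among those with at least 5 reads (ties by reads), and the 5 with the largest share in 1 library among those with at least 10 reads. These parts overlap and came to 24 genes. Zfp385c, Zfp663, Zfp872 and Zfp957 were added so that every member is described. Alternatives were other pseudocounts, filters, scaling, variance model and blocks, each library left out, and 3 chosen after the data were seen.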

Additional observations from a re-analysis of the deposited data

Results flagged for a closer look

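Of 61 groups of 6 libraries with unequal values, 8 had a library far from the other 5, and in 7 of the 8 it was the highest. Chance flags about 5% of groups in well-spread values. That rate does not hold for the 3 groups with 5 libraries at 0 (Zfp572 in each group and Zfp872 in NEO), where any value above 0 stands apart. In 3 groups all libraries were at 0. Zfp345 reached 2885 CPM in NEO 4, and it reached 580 CPM in SENS 1. Zfp750 had 3591 CPM in NEO 2. Zfp572 stood at 435 CPM in NEO 5, and it stood at 1093 CPM in SENS 6, with no reads in the other libraries. Zfp36l3 had 450 CPM in SENS 3. Zfp981 had 36.2 CPM in NEO 5, the lowest of its group. Zfp872 had 89.8 CPM in NEO 2, from 1 read.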

How the results depend on the processing

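The count of Zfp genes called remained 0 in the 22 other limma fits and in the exact permutation test. With the replicate block it was 0, with a smallest Zfp adjusted p of 0.717. The labels do not say whether replicate numbers pair the libraries, although libraries of the same number share a label number range. Correlations of same-numbered deviations lay between −0.032 and 0.082. With so few reads per gene, such correlations cannot exclude pairing. The block moved the genes at an unadjusted p under 0.05 from 189 to 176. Of 24 named genes, 16 kept their sign in every fit that held them. Left-out libraries turned the sign of 8: Zfp457 (−0.51 to 0.057), Zfp469 (−0.52 to 2.41), Zfp572 (−1.46 to 1.68), Zfp600 (−0.53 to 0.067), Zfp648 (−1.17 to 1.53), Zfp819 (−1.29 to 1.02), Zfp982 (−0.32 to 0.063) and Zfp991 (−0.29 to 0.0037). A pseudocount of 100 turned Zfp469 (−0.014) and one of 0.1 turned Zfp819 (0.43). The cause was not tested. Between 16 and 21 Zfp genes lay below 0, with 16 of 28 without SENS 6 and 16 of 20 at a mean of at least 200 CPM. The summed difference stayed below 0, from −4633 to −2339 CPM over left-out libraries. It was −3955 for pooled reads, −539 for genes with whole reads, −2999 for fractional genes and −1275 for the run. A tolerance of 0.02 reads gave 64.5% fractional values. Each Zfp gene had at most 128 reads over 12 libraries, and how depth limits the SE was not tested.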
